A study of Mus musculus with 8 samples.

Results

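The genes described are 9 chemokine receptors, Ccr2, Ccr3, Ccr4, Ccr6, Ccr8, Ccr9, Cxcr3, Cxcr4 and Cxcr6, taken by gene symbol from a table of 19703 genes. Each had 1 row, and all 9 passed the minimum for testing, a mean of 10 normalized reads over the libraries, as did 11083 genes in all. RNA was sequenced from regulatory T cells (Tregs), a CD4 lineage that depends on the transcription factor FOXP3 and holds immune responses in check. The cells came by sorting from Foxp3-GFP reporter mice, labelled WT in every title, and were purified again before sequencing. Every culture, up to day 6, held beads that engage CD3 and CD28, together with a Th17-polarizing mix of IL1B, IL6 and IL23. The FcCD70 group also received FcCD70, a soluble CD70, the ligand of the costimulatory receptor CD27, and the untreated group did not. The question was how CD27 signals act on the Treg transcriptome under Th17-favouring conditions.

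Of 4 untreated and 4 FcCD70 samples, 4 and 3 were analysed here, with 18159685 to 23527899 reads assigned to genes. The treatment field contradicts the title in all 8 samples. Groups follow the titles, and every direction holds only if they are right. The labels give neither age nor sex and do not say that each sample is a mouse of its own; p-values then reflect only sample-to-sample spread, which may be technical. The FcCD70 library numbered 2 stands apart in Foxp3, with 2788 normalized reads against 4811 to 6585 in the other 6. Over all genes tested its median correlation with the other libraries was the lowest but close to theirs, 0.970 beside 0.972 to 0.979.

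Chemokine receptors are G protein-coupled receptors that read gradients of small secreted proteins, the chemokines, and steer cells into tissue. Which receptors a T cell carries depends on its differentiation state: CCR6 is typical of Th17 cells, CXCR3 of Th1 cells, and CCR4 and CCR8 of Th2 cells and of Tregs that enter skin and other tissues. Tregs can take up the receptors of the effector cells they restrain. After binding their ligands, the receptors signal through inhibitory G proteins and are then silenced by receptor kinases and arrestins.

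On mouse chromosome 9 (GRCm38, GENCODE M21) lie 6 of the 9, and 4 of these, Ccr9, Cxcr6, Ccr3 and Ccr2, sit within 435 kb. Ccr3 covers chr9:124021972-124031689 and Ccr6 covers chr17:8236043-8257141, both on the plus strand. The stretches before the start sites of Ccr3 and Ccr6 are shown because these 2 genes had the smallest p-values between the groups. Each is the 250 bases upstream of a RefSeq start site (GRCm38.p6), on the plus strand, at chr9:124021721-124021970 and chr17:8242276-8242525. The Ccr6 window belongs to the second of its RefSeq start sites, which lies inside the gene. Capitals mark matches on either strand. The motifs described are TCACAC for T-box factors, AGATAA for GATA factors, TGANTCA for AP-1, and the NF-kB consensus.
Ccr3: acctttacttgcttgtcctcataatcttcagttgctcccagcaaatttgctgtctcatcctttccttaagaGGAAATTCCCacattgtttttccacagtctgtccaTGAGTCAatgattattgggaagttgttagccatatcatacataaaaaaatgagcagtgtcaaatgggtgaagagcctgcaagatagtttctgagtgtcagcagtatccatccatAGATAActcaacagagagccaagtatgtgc
Ccr6, second start: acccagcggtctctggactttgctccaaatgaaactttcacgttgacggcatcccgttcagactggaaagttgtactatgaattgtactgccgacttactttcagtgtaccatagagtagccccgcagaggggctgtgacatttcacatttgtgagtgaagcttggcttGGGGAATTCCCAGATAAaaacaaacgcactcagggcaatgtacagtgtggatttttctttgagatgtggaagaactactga
The Ccr3 window holds an NF-kB match 179 bases before the start site, an AP-1 match at 144 bases and a GATA match at 30 bases. The Ccr6 window holds overlapping NF-kB matches from 81 bases on and, next to them, a GATA match at 70 bases. Among the 10 start sites of the 9 genes, 2 windows hold an NF-kB match, 2 an AP-1 match, 4 a GATA match and 1, that of Cxcr3, a T-box match. Of all 32851 start-site windows searched, which may also reach past the start site, 3.90%, 6.75%, 9.99% and 12.3% hold them. These are matches of letters only.

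The 9 transcripts spanned a wide range of levels. Per kilobase of the principal transcript, Ccr2, a receptor of inflammatory recruitment that binds CCL2, was highest with 839 normalized reads on average over the 7 libraries (range 631 to 975). Next came Ccr6, the receptor for CCL20, with 751 (456 to 1253), and Ccr4, which binds CCL17 and CCL22, with 718 (514 to 848). These 3 overlapped in range, and counting all annotated exons in place of the principal transcript set Ccr4 above Ccr6. Cxcr6, the receptor for CXCL16, had 501 per kilobase (287 to 714), Cxcr4, the CXCL12 receptor, 329 (249 to 445), and Cxcr3, the receptor for CXCL9, CXCL10 and CXCL11, 276 (239 to 321). Cxcr6 overlapped Ccr4 above it, Cxcr4 overlapped Cxcr6, and Cxcr3 overlapped Cxcr4. Below them stood Ccr8, the CCL1 receptor, at 125 per kilobase (81.1 to 172), Ccr3 at 48.5 (19.2 to 75.0) and Ccr9 at 5.28 (3.56 to 7.37). The ranges of Cxcr3, Ccr8, Ccr3 and Ccr9 did not overlap, and their order held in 7 of 7 libraries.

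**Figure D1:**
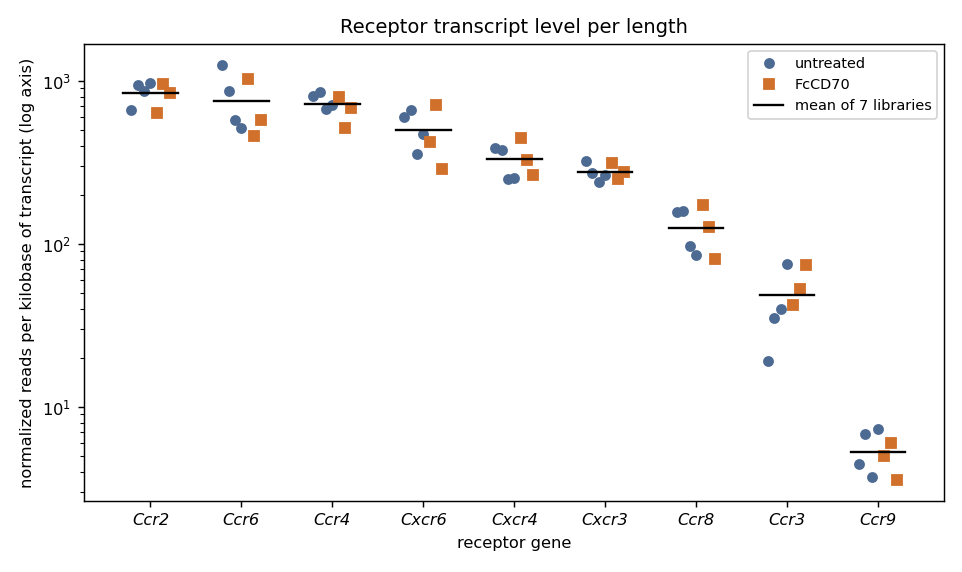
Normalized reads per kilobase of the principal GENCODE transcript (log axis) for each receptor gene, with 1 point per library (circles untreated, squares FcCD70) and the mean of 7 libraries as a line. Ccr2, Ccr6 and Ccr4 lie together at the top with means of 839, 751 and 718, and Ccr9 lies at the bottom with a mean of 5.28.

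Against the 11083 genes tested, the per-length level of Ccr2 stood at percentile 81.6, that of Cxcr3 at 51.5, that of Ccr3 at 18.6 and that of Ccr9 at 3.17. Ccr2 held on average 23.9% of the summed per-length level of the 9 genes, Ccr6 20.4% and Ccr4 20.03%. The make-up differed between libraries. Ccr6 held 29.8% in the untreated library numbered 1, where Ccr2 held 15.7%, and 15.3% in the one numbered 4, where Ccr2 held 29.1%. Reads behind the low genes are few: 18.5 to 38.3 normalized reads for Ccr9 came from 20 to 44 counted reads. Ccr9 is also the member that shares most sequence with other genes: 20.1% of its 50-base stretches recur, on either strand, in another annotated gene. Most of these recur in AC165425.1 (17.8% of all stretches), which lies on the opposite strand, and how counting handled strand is not given. In all, 3 genes overlap the exons of Ccr9. The lincRNA Gm17200 does so on the same strand, by 269 bases. Slc6a20a and AC165425.1 do so on the opposite strand, by 22 and 1932 bases. The share of recurring stretches was 1.91% for Ccr2, 0.465% for Ccr4 and 0% for the other 6.

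None of the 9 receptor genes passed the test between FcCD70 and untreated libraries. By limma with the replicate number as a block, on log2(value + 1), 0 of 9 had an adjusted p under 0.05 over all genes tested, as did 0 of 11083 (0.00%). The adjusted p was 0.9998 for each member. At an unadjusted p under 0.05 stood 2 of the 9, Ccr3 higher and Ccr6 lower, beside 1.70% of all genes tested. Log2 fold changes lay above 0 in 3 members and below 0 in 6, with a median of -0.04, beside -0.0035 over all genes tested. The ranges of the groups overlapped in all 9, while they were apart in 2.53% of all genes. In bulk samples fewer cells carrying a receptor and less RNA per cell cannot be told apart.

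Ccr3, the receptor for the eotaxins and best known from eosinophils, showed the largest difference of the 9. The untreated libraries numbered 1 to 4 had 62.7, 115, 130 and 245 normalized reads, and the FcCD70 libraries numbered 1 to 3 had 139, 174 and 244. Within each number the FcCD70 library was the higher, by 2.21, 1.51 and 1.88 times, while the highest value of all belonged to the untreated library numbered 4. That library has no partner here and does not enter the fold change. Means were 138 ± 77.0 (SD, n = 4) and 186 ± 53.7 (SD, n = 3), and the log2 fold change was 0.88 (SE 0.23, 95% interval 0.36 to 1.39, adjusted p = 0.9998). Ccr3 was the only one of the 9 with the same sign in 3 of 3 pairs. Of all genes tested 9.03% were higher and 9.61% lower with FcCD70 in every pair, 18.6% together. Without the block the value was 0.55 (adjusted p = 0.99996), and without the block and the untreated library numbered 1 it was 0.23. In the authors' deposited table, Ccr3 stood at 0.63 on the log2 scale when turned to the same direction (SE 0.25, p = 0.0132 and adjusted p = 0.99999 by DESeq2). Of the genes with a p there, 1.45% had an unadjusted p under 0.05 and 0 an adjusted one. DESeq2 on the reads recovered from the 7 libraries, with the block, gave Ccr3 0.87. Which samples the authors' fit used is not known here, so these values may not rest on the same samples. Of 4 eosinophil markers, Epx was at 0 in every library, and the summed level of the 4 was 0 to 7.06 untreated and 1.76 to 6.74 with FcCD70. The part of other cell types in the Ccr3 values was not tested.

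Ccr6, the Th17-associated receptor, was lower in the FcCD70 libraries numbered 1 and 2 but not in the one numbered 3. Untreated libraries had 2199, 1527, 1003 and 898 normalized reads, and FcCD70 libraries 1792, 800 and 1010. FcCD70 library 2 was the lowest of the 7, and the pair numbered 3 was level at a ratio of 1.01. The log2 fold change was -0.41 (SE 0.18, 95% interval -0.81 to -0.0056, adjusted p = 0.9998). Without the block it was -0.22 (limma adjusted p = 0.99996). Without the libraries numbered 2 it was -0.14 and without those numbered 3 it was -0.61. Leaving out only the FcCD70 library numbered 2, and using as covariate whether a library is numbered 1 or 2, turned it to 0.03. The authors' deposited table gives Ccr6 a log2 fold change, turned the same way, of -0.38 (p = 0.0147, adjusted p = 0.99999 by DESeq2).

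Ccr4, like Ccr6, was lowest in the FcCD70 library numbered 2. Its untreated values were 2269, 2377, 1894 and 1988, and its FcCD70 values 2227, 1441 and 1898. The pairs numbered 1 and 3 stood at ratios of 0.981 and 1.002, and the pair numbered 2 at 0.606. The log2 fold change was -0.25 (95% interval -0.61 to 0.11), and -0.01 without the libraries numbered 2. For Ccr6 and Ccr4 the lowest value and the lowest Foxp3 value thus fell in 1 library, and the part of that library's other differences in them was not tested. For Ccr6 the untreated library numbered 4 was close, at 898 against 800, with a Foxp3 value of 5126.

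Cxcr6 did the reverse in that library, where it was highest of all. Its untreated values were 1135, 1263, 672 and 892, and its FcCD70 values 796, 1355 and 545. FcCD70 was lower in the pairs numbered 1 and 3 and higher in the pair numbered 2. The log2 fold change was -0.24 (95% interval -0.58 to 0.11), -0.41 without the libraries numbered 2, and -0.55 (limma adjusted p = 0.0789) without the FcCD70 library numbered 2 in the fit with the covariate.

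**Figure D2:**
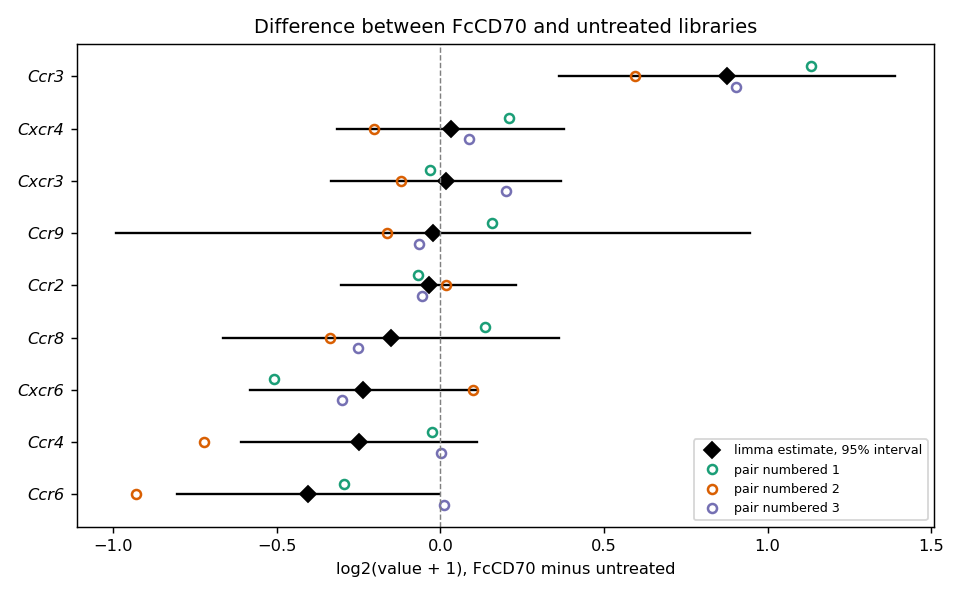
Log2 differences, FcCD70 minus untreated, for each receptor gene. Black diamonds and lines give the limma estimate and its 95% interval, and open circles the 3 same-numbered pairs. All 3 circles of Ccr3 lie above 0, and the circles of the pair numbered 2 lie at -0.93 for Ccr6 and -0.72 for Ccr4.

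The remaining 5 receptors had fold changes close to 0, with intervals of unequal width. Ccr2 had 3794, 5411, 4984 and 5583 untreated and 3616, 5479 and 4792 with FcCD70. Its pair ratios were 0.953, 1.01 and 0.962, and its log2 fold change of -0.04 had the narrowest interval (-0.30 to 0.23). Cxcr3 had 556, 470, 414 and 456 untreated and 544, 432 and 475 with FcCD70, the smallest spread of the 9 (1.34 times between the lowest and the highest library). Its log2 fold change was 0.02 (-0.34 to 0.37). Ccr9, the gut-homing receptor for CCL25, had 23.1, 35.3, 19.4 and 38.3 untreated and 25.9, 31.5 and 18.5 with FcCD70, and its interval of -0.99 to 0.95 on the log2 scale spans ratios of 0.503 to 1.93. For Ccr8 and Cxcr4, at -0.15 (-0.67 to 0.36) and 0.03 (-0.31 to 0.38), the spread followed the replicate number.

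The replicate number, 1 and 2 against 3 and 4, went with larger log2 differences than the treatment in every member but Ccr3 and Ccr4. Only for Ccr8 and Cxcr4 did it do so with no overlap. Ccr8, a receptor of tissue Tregs, had 184, 188, 202 and 148 normalized reads in the untreated and then the FcCD70 libraries numbered 1 and 2. In the libraries numbered 3 and 4 it had 114 and 100 untreated and 95.2 with FcCD70. Cxcr4, which retains cells where CXCL12 is made, such as the bone marrow, had 695, 682, 804 and 592 in the former and 450, 454 and 478 in the latter. No value of the libraries numbered 3 or 4 reached one of those numbered 1 or 2, and the ratios of means were 1.75 and 1.51. These 2 of 9 are the members whose values did not overlap between those sets of libraries. Of all genes tested 22.2% did not overlap either, 11.1% with the numbers 1 and 2 higher, so the members' share is close to the background. What the numbers stand for is not in the labels, and the split had been seen in earlier results of these data, so no test was made.

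Ccr6 and Cxcr6 were also higher on average in the libraries numbered 1 and 2, at ratios of 1.63 and 1.62, and Ccr3 was lower, at 0.594, but with overlap. For Ccr6 the overlap came from the FcCD70 library numbered 2 alone. Across the 7 libraries the members varied by a median log2 range of 1.01, beside 0.60 over all genes tested, from 3.91 times for Ccr3 to 1.34 times for Cxcr3.

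**Figure D3:**
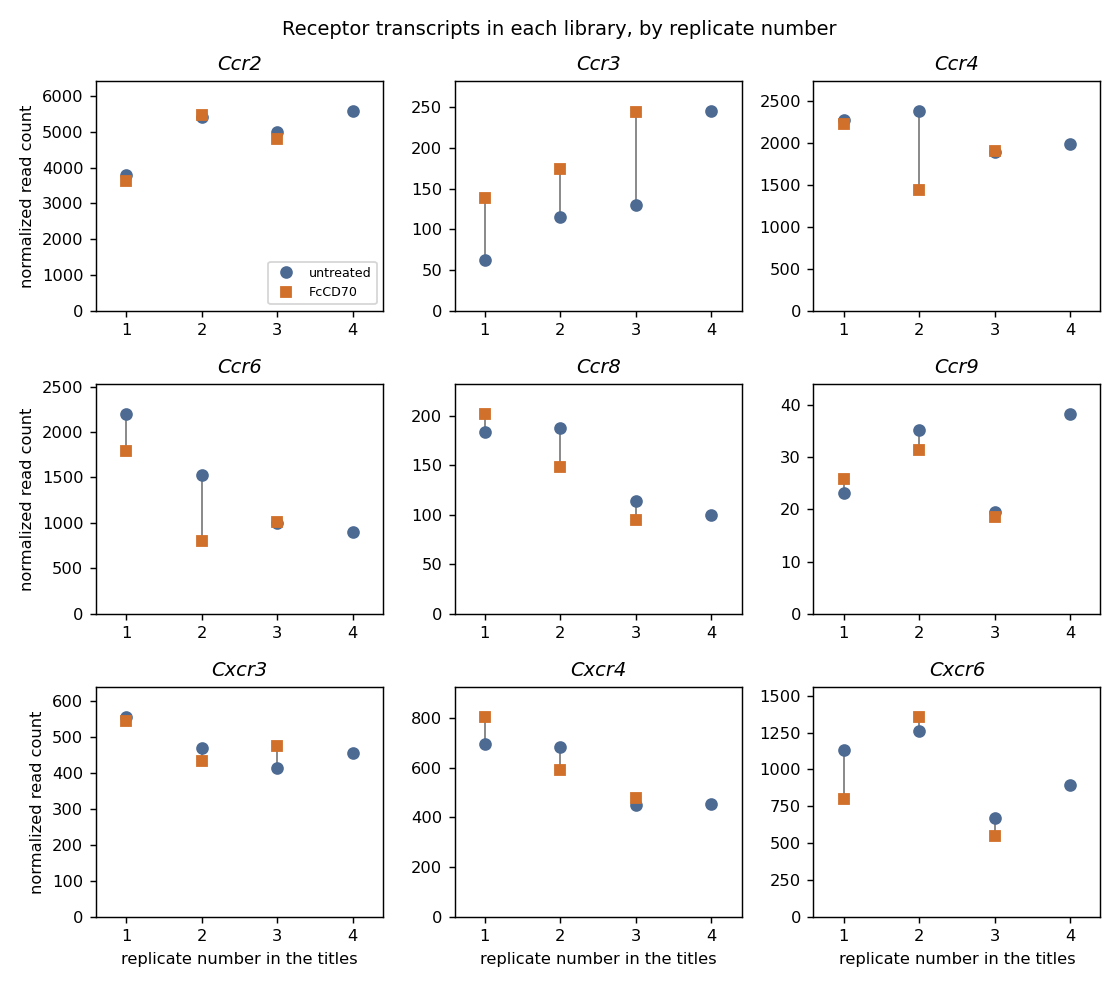
Normalized read counts of the 9 receptor genes in each library, by the replicate number in the titles (circles untreated, squares FcCD70, grey lines joining a same-numbered pair, each vertical axis from 0). Ccr8 and Cxcr4 lie lower in the libraries numbered 3 and 4, and Ccr3 is the panel where each square lies above the circle of its number.

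Other chemokine receptors made up a list of 15. Of these, 8 were tested, 1 with a log2 fold change above 0 and 7 below, with a median of -0.22, and 0 passed. The lymph node homing receptor Ccr7 averaged 6079 ± 489 normalized reads untreated (SD, n = 4) against 5854 ± 456 (SD, n = 3), and Cxcr2, a receptor best known from neutrophils, had a log2 fold change of -0.62 (-1.42 to 0.17). Cxcr2 had 35.9 normalized reads in the FcCD70 library numbered 2 and 74.6 to 106 in the others. Its log2 differences in the pairs numbered 1 to 3 were -0.47, -1.53 and 0.13. Within 1 megabase of a member 81 genes were tested, with a median of -0.03, 35 above and 46 below 0. Lars2, a mitochondrial tRNA synthetase, and Rpsa, a ribosomal protein, had the highest counts there, and Kif15, a mitotic motor, stood at -0.40 on the log2 scale (95% interval -0.80 to -0.0061, adjusted p = 0.9998).

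Most ligands of the 9 receptors were scarce in the RNA of the purified cells. Of 17 listed, 16 had a row, 8 of these were at 0 in every library, and 3 reached the minimum for testing. Ccl25, the CCR9 ligand, averaged 158 ± 43.7 untreated (SD, n = 4) against 168 ± 87.7 (SD, n = 3). Ccl5 had 130 ± 56.3 and 159 ± 21.4, or 267 per kilobase of the principal transcript over the 7 libraries, near the 276 of Cxcr3. Ccl20, the CCR6 ligand and a Th17 product, had 31.0 ± 28.2 and 18.1 ± 11.4. The highest mean among the other 13 was 2.83 normalized reads.

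Genes that carry receptor signals were well expressed and lay on both sides of 0. Of 21 signalling and migration genes, all tested, 10 lay above and 11 below 0 (median -0.01), and 0 passed. Coro1a, which binds actin, and the GTPase Rac2 had the highest counts, with log2 fold changes of 0.06 and -0.05, and Pik3r5, the regulatory subunit of the PI3-kinase that G protein-coupled receptors activate, had the smallest p (-0.25, 95% interval -0.63 to 0.13). Rap1b, a GTPase that turns integrins on, followed with 0.19. Of 11 tested genes of receptor silencing, 7 lay above and 4 below 0 (median 0.03), and 0 passed. Rgs2, which speeds the turn-off of G proteins, had 1785, 1118, 661 and 749 untreated and 1997, 2397 and 914 with FcCD70. It was higher in 3 of 3 pairs, by 0.58 on the log2 scale (95% interval 0.18 to 0.98, adjusted p = 0.9998), and like Ccr8 it was lower in the libraries numbered 3 and 4. Rgs1, of the same family, had 0.30, and the receptor kinases Adrbk1 (GRK2) and Grk6, the highest of the list, had -0.04 each.

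Transcription factors tied in T cells to these receptors were split evenly, 8 of 16 above 0 and 8 below, with a median of 0.0089, and 0 passed. In every same-numbered pair 4 of the 16 were higher and 4 lower, beside 9.03% and 9.61% of all genes tested. At an unadjusted limma p under 0.05 stood 2 of the 16, beside 1.70% of all genes tested. Irf4, a factor of effector T cells, had -0.32 (-0.63 to -0.01), while Hif1a and Foxo1, the highest of the list, had 0.19 and 0.02.

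Markers of Tregs were present in every library: all 8 on the list had means over 10, with a summed level of 122513 to 141539 untreated and 115038 to 142510 with FcCD70. The 3 of 5 macrophage markers that had a row summed to 91.3 to 121 untreated and 63.5 to 105 with FcCD70, nearly all from Cd68. B cell markers summed to 146 to 270 and 155 to 212, led by Cd79b. The 2 CD8 T cell markers summed to 118 to 183 and 149 to 201, led by Cd8b1, the 4 dendritic cell markers to 18.3 to 40.7 and 15.0 to 73.0, led by Zbtb46, and the 2 epithelial markers to 92.8 to 151 and 79.8 to 163, led by Epcam. Markers of NK cells, mast cells and basophils, neutrophils and red cells summed to at most 7.94 in any library, with Ncr1, Mcpt8, Fcer1a, S100a8, S100a9 and Elane at 0 throughout. Of the 3 NK cell markers listed 2 had a row, and of the 3 red cell markers 2. The part of these other cell types in the receptor values was not tested.

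The fold changes were recomputed under 21 alternative settings, 20 for Ccr9, and none of the 9 genes passed in any of them. Only Ccr3 and Ccr4 kept their sign in all, though some of the settings, such as the filters, could not change the estimate.

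**Figure D4:**
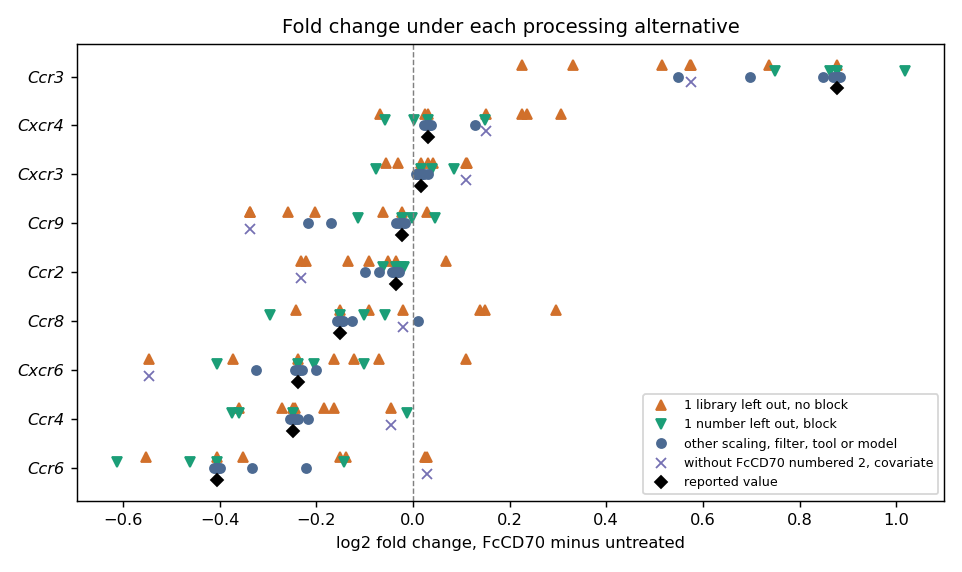
Log2 fold change of each receptor gene under the reported fit (diamonds) and its alternatives: 1 library left out with no block (upward triangles), 1 number left out with the block (downward triangles), another scaling, filter, tool or model (circles) and the covariate fit without the FcCD70 library numbered 2 (crosses). Ccr3 stays above 0, from 0.23 to 1.02, and Ccr4 below 0, while Ccr6 runs from -0.61 to 0.03.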

How the data were processed

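Poly(A) RNA was sequenced from strand-marking libraries, per the labels' protocols. The submitters' processing notes name GRCm38.p4, TopHat2, HTSeq, SAMtools and DESeq2 without role or order, and the handling of strand and of reads that map to several genes is not given in the sources used here. The library columns hold a deposited signal, gene reads that the authors scaled by a size factor for the library. In each library 100% of values were whole multiples (tolerance 0.01) of a single read's worth, and reads were recovered for edgeR (4.0.16) and DESeq2 (1.42.0). The authors' log2 fold changes and p-values, per the file headers from DESeq2, are coded untreated minus FcCD70 and were turned. The FcCD70 sample numbered 4 was not analysed here.

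As the values were not raw counts, the test was limma (3.58.1, R 4.3.3, with a trend) on log2(value + 1), which understates changes of low genes, over genes with a mean of at least 10, with the replicate number as a block because the authors' table is named as paired, and Benjamini-Hochberg adjustment over all genes. Fold changes then rest on 3 pairs, with 2 residual degrees of freedom. The limma intervals and p-values also use degrees of freedom borrowed from the spread of all genes tested, not those of the 3 pairs alone. The test was tried on simulated reads that held no effect of the replicate number. That trial cannot show how the test performs on these data. Lengths and positions come from GENCODE M21. The named genes are the 9 members and, of each list, the 2 with the smallest p and the 2 with the highest mean. For the 4 most variable members the 3 genes most like them are named. The members and lists were chosen with earlier results of these data known, and motifs were chosen after the values were seen. Alternatives were other pseudocounts, filters, scalings, tools and models, and leaving out libraries. Some genes and a motif that these rules would name are not reported here.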

Additional observations from a re-analysis of the deposited data

How the results depend on the processing

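The count of genes called over the whole table was 0 with limma (188 at an unadjusted p under 0.05) and with edgeR on recovered reads (168), and 1, Il17f, with DESeq2 on recovered reads. Leaving out libraries gave 0 to 19 genes, and leaving out the FcCD70 library numbered 2 with the covariate gave 6. No receptor gene was called under any of these, with adjusted p of at least 0.0789. Without the replicate block the count was 0 (120 at an unadjusted p under 0.05), and the block changed no receptor's call. Same-numbered libraries deviated together for the numbers 1 and 3 (correlations of their deviations across genes 0.303 and 0.435) but not for 2 (0.0144). Differently numbered libraries reached 0.255 (untreated 2 with FcCD70 1) and 0.347 (untreated 4 with FcCD70 3), and pairs across the split of 1 and 2 against 3 and 4 lay between -0.362 and -0.011, so the samples are known to share only a number. Ccr3 and Ccr4 kept their sign in all 21 alternatives, but not every alternative could change it. The other filters, and leaving out the untreated library numbered 4 with or without the block, gave the reported 0.88 and -0.25 again. Ccr8 turned to 0.011 without the block. Leaving out 1 library, with no block, turned the sign of Ccr8 (0.14, 0.149 and 0.30 without untreated 1, untreated 2 and FcCD70 3), Ccr6 (0.024 without untreated 1, 0.028 without FcCD70 2, and 0.028 with the covariate), Ccr9 (0.029 without FcCD70 3), Ccr2 (0.068 without FcCD70 1), Cxcr6 (0.11 without FcCD70 3), Cxcr3 (-0.031 without untreated 3, -0.056 without FcCD70 1) and Cxcr4 (-0.069 without FcCD70 1). Leaving out 1 number with the block gave -0.11 to 0.046 for Ccr9, -0.076 to 0.084 for Cxcr3 and -0.058 to 0.148 for Cxcr4. Each of these fits holds fewer samples, and the cause was not tested further. In the fits without a replicate number 1 residual degree of freedom remained for the numbers 1, 2 and 3. Depth limits Ccr9 most: counting error alone is 22.4% in its lowest library, against 13.2% for Ccr3 and under 10% for the others.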

Other observations

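The genes whose log2 values over the 7 libraries lay closest to the 4 most variable receptors were found among 9574 genes with a mean of at least 50, as a description with no test; with 7 points and so many genes, high correlations arise easily, and the libraries share the split by replicate number. For Ccr3 these were Akr7a5 (Pearson r = 0.962), Cebpb (0.956), a transcription factor of inflammatory responses, and Pde4b (0.948), which breaks down cyclic AMP. Cebpb had 26.4, 45.4, 68.0 and 89.6 normalized reads untreated and 49.7, 76.4 and 86.4 with FcCD70, again lowest in the untreated library numbered 1 and highest in the one numbered 4. For Ccr6 they were Suco (0.998) and the kinesins Kif1a (0.992) and Kif3b (0.988). Kif1a had 501, 322, 185 and 179 untreated and 352, 165 and 200 with FcCD70, so that its lowest library was that of Ccr6. For Cxcr6 they were Tubb6 (0.982), Rpap3 (0.976) and Ube2c (0.972), a gene of dividing cells, which like Cxcr6 was highest in the FcCD70 library numbered 2 (601). For Ccr8 they were Tmem184c (0.992), Crot (0.992) and Sestd1 (0.989).

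Among the members, Ccr8 and Cxcr4 had the highest correlation over the 7 libraries (0.962), and Ccr2 and Cxcr3 the lowest (-0.850). Ccr1, at the chromosome 9 cluster, had 212, 158, 71.9 and 109 untreated and 187, 235 and 76.7 with FcCD70, higher in the libraries numbered 1 and 2 with no overlap, as for Ccr8; it was named after its values were seen.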
